A study of Mus musculus with 6 samples.

Results

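Replication-dependent histone genes encode the H1 linker histones and the H2A, H2B, H3 and H4 core histones that package newly made DNA. The genes were chosen by name, with a symbol that starts with Hist1h, Hist2h, Hist3h or Hist4h, and were selected on an FPKM (fragments scaled to gene length and library size) above 0 in at least 1 library. The rule found 70 of the 25576 genes listed, which are 6 H1, 19 H2A, 20 H2B, 12 H3 and 13 H4 genes. GENCODE M21 lists 64 of them as protein coding and 3 as pseudogenes (Hist1h2aj, Hist1h2al and Hist3h2bb-ps), and lacks the identifiers of 2 (Hist1h2bh and Hist1h2bm). All were kept in the sums and counts. No gene listed in the files under such a name was at 0 in all 6 libraries, and 68 of the 70 were above 0 in every library. The 2 genes nearest to the limit were the testis types Hist1h2ba, with a mean of 0.291 FPKM, and Hist1h1t, with a mean of 0.422 FPKM.

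Bulk-seq covered whole spinal cord of FVB mice at postnatal day 4, with 3 libraries labelled SMA and 3 labelled control. SMA mice had the genotype mSmn-/-, hSMN22tg/0, which is a knockout of mouse Smn with a human SMN2 transgene, and control mice had the genotype mSmn+/-, hSMN22tg/0, with the same transgene and a single working copy of mouse Smn. The study does not state clearly whether the libraries of a group came from separate animals, so the spread between them may be partly technical. Smn1, the targeted gene, had FPKM of 10.4, 8.64 and 11.9 in the control libraries, listed here and below in the order of replicates 1 to 3, and of 8.48, 9.30 and 11.1 in the SMA libraries. The groups overlapped, so the values of the targeted gene give no check of the labels.

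Control replicate 2 stood apart from the other 5 libraries. Its 12 hepatocyte markers summed to 35122 FPKM, against 60.8 to 130 FPKM elsewhere, with Alb as the most abundant. Its 11 erythroid markers summed to 18945 FPKM, against 1150 to 1905 FPKM, with Hbb-bs as the most abundant. The comparisons of SMA with control below are therefore given with and without that library.

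Transcription of replication-dependent histone genes is switched on in S phase, when the factor NPAT gathers at the gene clusters. Their mRNAs are unusual in that they end in a short stem-loop in place of a poly(A) tail. The stem-loop is bound by SLBP, and the cut after it is directed by the U7 snRNP, whose Sm-like ring contains Lsm10 and Lsm11 and is assembled by the SMN complex, the machinery that is deficient in SMA. The libraries were made from ribosomal RNA-depleted RNA, so mRNAs without a poly(A) tail could be captured.

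The stem-loop is the feature that defines these mRNAs, and it was searched for in the GENCODE M21 transcripts as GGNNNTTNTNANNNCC with all 6 stem bases paired, on the transcribed strand after the stop codon. Of 50 protein-coding members whose transcript model had at least 16 bases after the stop codon, 44 held a match, at a median of 31.5 bases after it. Another 14 models ended within 15 bases of the stop codon and could not be searched. Among 21079 other protein-coding genes, 15 (0.0712%) held a match, H2afx among them. The matches took 8 forms, of which 6 examples from the 5 classes are given with up to 5 bases on each side and the stem in capitals.
Hist1h1d: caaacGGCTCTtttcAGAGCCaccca
Hist2h2aa1: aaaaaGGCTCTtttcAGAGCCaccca
Hist3h2ba: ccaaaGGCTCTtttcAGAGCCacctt
Hist1h3g: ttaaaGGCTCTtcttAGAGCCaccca
Hist1h4f: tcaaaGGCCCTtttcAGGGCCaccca
Hist2h4: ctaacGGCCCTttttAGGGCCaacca
On GRCm38 the stem-loops of the first 4 lie on the plus strand, at chr13:23555787-23555802, chr3:96246032-96246047, chr11:58949349-58949364 and chr13:23535889-23535904. Those of Hist1h4f, at chr13:23551291-23551306, and Hist2h4, at chr3:96262939-96262954, lie on the minus strand. The stem separated H4 from the other classes. All 32 matches in H1, H2A, H2B and H3 began with GGCTCT, whereas none of the 12 in H4 did, with 10 that began with GGCCCT and 2 with GGTCCT.

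Most members lie in clusters, with 55 members on chromosome 13 (Hist1), 11 on chromosome 3 (Hist2), 3 on chromosome 11 (Hist3) and 1 on chromosome 6 (Hist4). The pseudogene Hist1h2al starts at position 51202688 of chromosome 13, far from the others there, which end by position 23934156. The coding sequences of the members are close copies of each other. The median identity of a coding sequence to its closest relative within a class was 98.4%, and 8 members had an identical copy. H1 was the most diverse class, with a median of 81.5%. Reads from near-identical copies can be assigned to either copy, so values of single members are uncertain and sums over a class are given first. The 2 rows named Hist2h2bb have different identifiers, and 1 of them is annotated in GENCODE M21 as a noncoding gene under another name.

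Promoters were matched for 61 members in the RefSeq table of GRCm38.p6, which holds 250 bases before and 50 bases after each start. Both strands were searched for the octamer ATTTGCAT, for CCAAT and for TATAAA. The octamer was found in 6 of 17 H2A and 7 of 16 H2B promoters and in no H1, H3 or H4 promoter, against 1.74% of all 32851 promoters. CCAAT was found in every H1, H2A, H2B and H3 promoter but in 3 of 12 H4 promoters, against 37.4% of all promoters. TATAAA was found in 55.7% of member promoters and 13.6% of all promoters. The 4 members below, which differed in control replicate 2, are shown by the 120 bases before their start, with matches to these motifs on either strand in capitals.
Hist1h1a: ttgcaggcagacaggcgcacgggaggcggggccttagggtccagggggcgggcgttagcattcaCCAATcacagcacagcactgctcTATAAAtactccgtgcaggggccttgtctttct
Hist1h4f: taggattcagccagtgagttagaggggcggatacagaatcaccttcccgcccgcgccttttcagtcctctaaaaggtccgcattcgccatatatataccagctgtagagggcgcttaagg
Hist3h2a: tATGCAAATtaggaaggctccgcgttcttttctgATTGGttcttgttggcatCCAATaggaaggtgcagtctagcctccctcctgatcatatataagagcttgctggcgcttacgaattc
Hist3h2ba: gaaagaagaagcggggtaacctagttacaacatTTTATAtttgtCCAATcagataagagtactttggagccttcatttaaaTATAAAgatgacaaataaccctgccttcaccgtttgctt
They lie at chr13:23763548-23763667, chr13:23551669-23551788 (minus strand), chr11:58954565-58954684 and chr11:58948791-58948910, and that of Hist1h4f holds no match in the bases shown. A match is a description of the letters and not a measured binding site.

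Summed over all 70 members, replication-dependent histones reached 2188, 7846 and 1872 FPKM in the control libraries and 2052, 1679 and 1773 FPKM in the SMA libraries. Control replicate 2 was 4.10 times the mean of the other 5 libraries, and without it the groups overlapped. In that library these genes held 1.90% of all FPKM, against 0.461% to 0.607% elsewhere. Bulk values do not separate the number of cells of a type from the RNA per cell, so more cycling cells and more histone mRNA per cell cannot be told apart.

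H1 histones, which bind the linker DNA between nucleosomes, summed to 131, 640 and 112 FPKM in the control libraries and to 120, 97.9 and 99.0 FPKM in the SMA libraries. H2A summed to 704, 2668 and 614 FPKM in the control libraries and to 714, 599 and 638 FPKM in the SMA libraries. H2B, which pairs with H2A, summed to 343, 1142 and 297 FPKM in the control libraries and to 320, 255 and 265 FPKM in the SMA libraries. For these 3 classes control replicate 2 was the highest library, and SMA replicate 1 lay above control replicate 3. H3 summed to 367, 1593 and 317 FPKM in the control libraries and to 324, 244 and 241 FPKM in the SMA libraries. H4, the partner of H3, summed to 642, 1802 and 533 FPKM in the control libraries and to 573, 484 and 529 FPKM in the SMA libraries. The groups overlapped in every class, because SMA replicate 1 exceeded control replicate 3 in each.

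**Figure D1:**
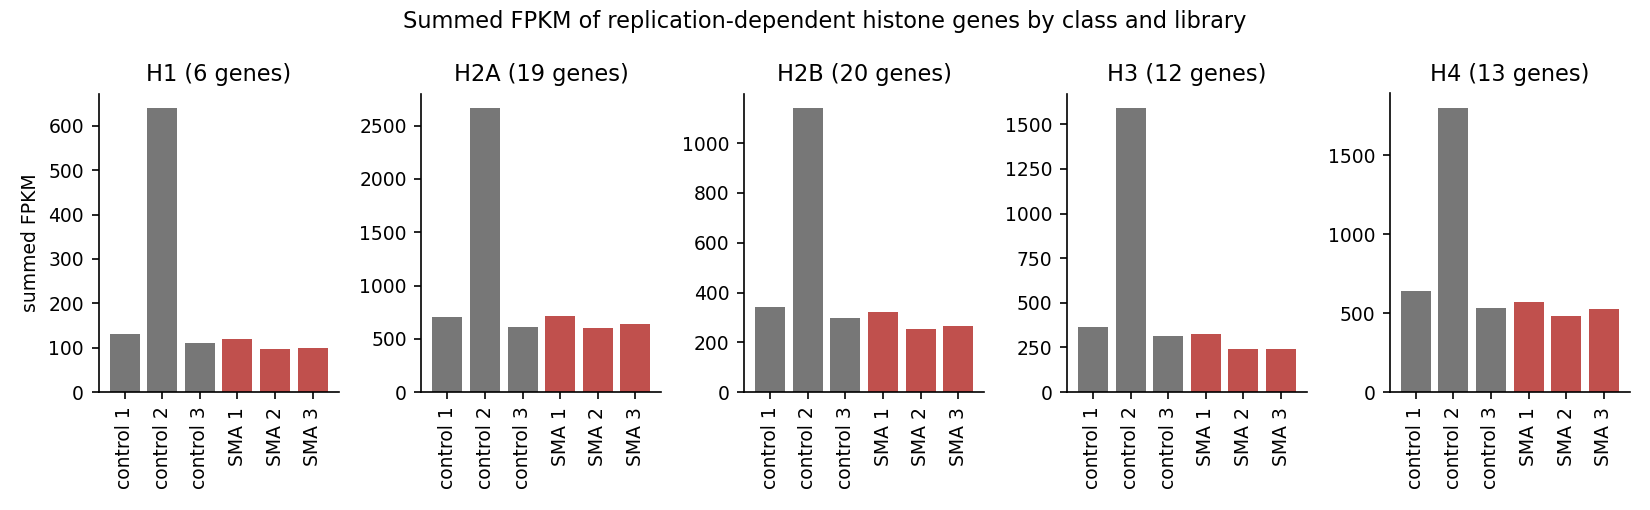
Summed FPKM (vertical axis, from 0, with its own scale for each class) of the genes of each histone class in each of the 6 libraries. Control 2 is the tallest bar in all 5 classes, with 640 FPKM for H1 and 2668 FPKM for H2A as the smallest and largest sums, and the other 5 libraries lie close together.

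The mean of the SMA libraries was 106 ± 12.6 FPKM for H1, 651 ± 58.8 for H2A, 280 ± 35.2 for H2B, 270 ± 46.8 for H3 and 529 ± 44.7 for H4 (SD, n = 3). The corresponding control means were 294 ± 300, 1329 ± 1161, 594 ± 475, 759 ± 723 and 993 ± 704 FPKM (SD, n = 3), with a spread about as large as the mean, due to control replicate 2. The log2 ratio of SMA over control was −1.48 for H1, −1.03 for H2A, −1.08 for H2B, −1.49 for H3, −0.91 for H4 and −1.11 for all members. Without control replicate 2 it was −0.20 for H1, −0.02 for H2A, −0.19 for H2B, −0.34 for H3, −0.15 for H4 and −0.15 for all members. The sign stayed negative in both versions, and most of the size was due to a single library.

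Across the 70 members, control replicate 2 was the highest of the 6 libraries for 65 (92.9%), whereas it was the highest for 24.7% of the 17088 genes that averaged 0.5 FPKM or more. The median ratio of control replicate 2 to the mean of the other 5 libraries was 4.79 over the members and 0.886 over all those genes. A ratio over 3 was found for 53 members and for 7.26% of all those genes. The ratio differed between classes. The median was 5.52 for H1, 5.22 for H2A, 4.40 for H2B, 5.60 for H3 and 2.98 for H4, and the share of H4 in all histone FPKM was 23.0% in control replicate 2 and 28.9% in the mean of the other libraries. H3 made up 20.3% in control replicate 2 and 15.6% elsewhere.

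**Figure D2:**
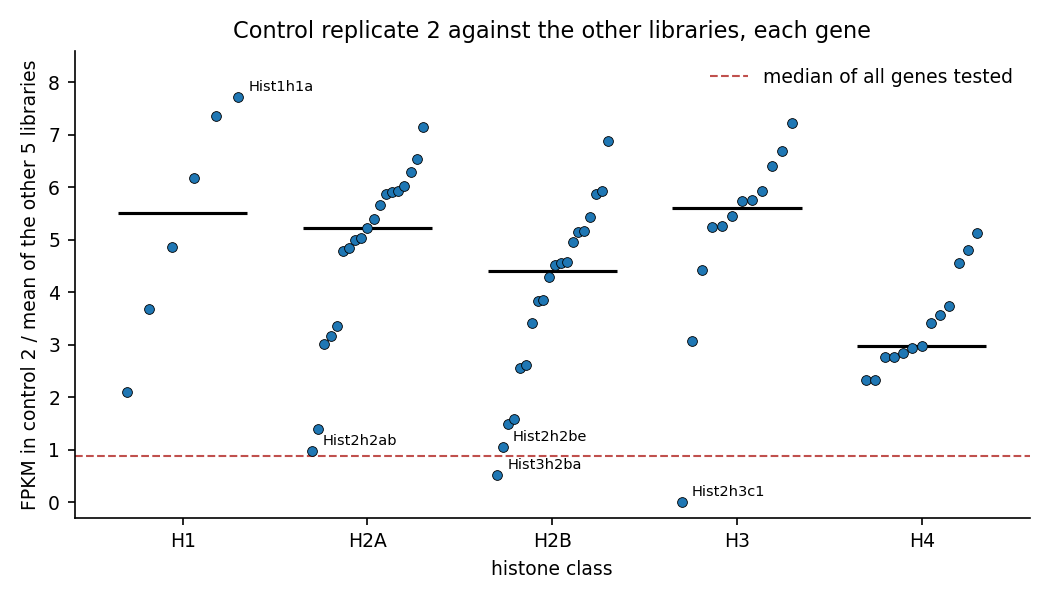
FPKM in control replicate 2 divided by the mean of the other 5 libraries (vertical axis) for each of the 70 members, by class, with black lines at class medians and a dashed line at the median of all genes tested (0.886). Most members lie above 2, and Hist3h2ba (0.513) and Hist2h3c1 (0) lie below the dashed line.

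Members outside this pattern lay mainly in the small clusters. Hist3h2ba, an H2B gene on chromosome 11, was the reverse of the rest, at 37.3, 22.7 and 46.2 FPKM in the control libraries and 45.1, 46.8 and 45.9 FPKM in the SMA libraries. Its neighbour Hist3h2a was at 43.4, 59.4 and 45.2 FPKM in the control libraries and 39.9, 44.0 and 40.3 FPKM in the SMA libraries. Both promoters hold CCAAT, with the octamer in that of Hist3h2a and TATAAA in that of Hist3h2ba, and whether motifs go with the ratio of control replicate 2 was not tested. Hist2h2ab was at 12.4, 14.2 and 9.19 FPKM in the control libraries and 15.2, 21.9 and 14.2 FPKM in the SMA libraries. Hist2h2be was at 2.11, 2.00 and 1.13 FPKM in the control libraries and 1.87, 2.50 and 1.98 FPKM in the SMA libraries. The files give Hist2h2ab a span of 23721 bases and Hist3h2a one of 23366 bases, far beyond the gene, and 14 members had a span over 2000 bases. The median ratio of control replicate 2 to the other libraries was 2.97 for those 14 and 5.08 for the other 56, and the part of span in this was not tested. Hist2h3c1 was listed at 0 in control replicate 2 and at 4.65 to 6.96 FPKM in 4 libraries and 0.109 FPKM in SMA replicate 3. Hist2h3c2 of the same cluster was at 16.8, 92.1 and 14.0 FPKM in the control libraries. It was at 14.4, 8.64 and 9.998 FPKM in the SMA libraries. The coding model of Hist2h3c1 is 546 bases long, against 411 bases for its closest relative, Hist2h3b. Their identity, taken over the longer model, was 75.3%, and the difference in length accounted for all of the shortfall. The files list Hist2h3c1 at the same locus as Hist2h2aa1. A shift of reads between Hist2h3c1 and any of these genes was not tested. The testis type Hist1h2ba was listed at 0 in control replicate 1 and SMA replicate 3, at 0.341 FPKM in control replicate 3 and at 0.584 FPKM in SMA replicate 1, its highest value, and was not tested.

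Among the linker histones, Hist1h1d was the most abundant, at 40.5, 193 and 29.3 FPKM in the control libraries and 31.9, 28.1 and 27.0 FPKM in the SMA libraries. Hist1h1c was at 28.5, 141 and 25.6 FPKM in the control libraries and 38.2, 25.2 and 27.0 FPKM in the SMA libraries. Hist1h1b was at 21.9, 140 and 22.2 FPKM in the control libraries and 18.8, 15.4 and 16.8 FPKM in the SMA libraries. In Hist1h1c an SMA library lay above 2 of the control libraries, while in Hist1h1b every SMA library lay below every control library. Hist1h1a had the largest ratio of control replicate 2 to the other libraries of all members, 7.72, and was at 15.5, 89.4 and 12.9 FPKM in the control libraries and 11.4, 9.16 and 9.09 FPKM in the SMA libraries. Hist1h1e was at 24.7, 76.4 and 21.2 FPKM in the control libraries and 19.6, 19.7 and 18.8 FPKM in the SMA libraries. These 2 genes also had no overlap between the groups. The testis type Hist1h1t was at 0.271 to 0.747 FPKM and was not tested.

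The most abundant member of all was the H2A gene Hist2h2aa1, at 211, 680 and 218 FPKM in the control libraries and 228, 194 and 225 FPKM in the SMA libraries. Its identical copy Hist2h2aa2 was at 65.7, 207 and 60.1 FPKM in the control libraries and 78.8, 66.6 and 73.5 FPKM in the SMA libraries. Beyond control replicate 2, both copies were as high in SMA as in control libraries. Hist1h2ak was at 42.8, 226 and 39.2 FPKM in the control libraries and 38.9, 32.4 and 38.7 FPKM in the SMA libraries. The 2 H2A genes with the largest log2 fold change over all 6 libraries were Hist1h2af (−1.12 ± 0.67, SE) and Hist2h2ac (−1.09 ± 0.54), both with overlapping groups. Without control replicate 2 they were at −0.32 ± 0.27 and −0.48 ± 0.27.

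In the H2B class, the protein-coding row of Hist2h2bb was at 58.3, 151 and 49.6 FPKM in the control libraries. It was at 43.3, 34.1 and 36.1 FPKM in the SMA libraries. The noncoding row of that name was at 0.840 to 2.57 FPKM, and the files list both rows at the same locus as Hist2h3b. Hist1h2bn, which also had the largest log2 fold change of the class, was at 42.3, 196 and 38.5 FPKM in the control libraries and 33.8, 26.1 and 24.6 FPKM in the SMA libraries. Hist1h2bg was at 43.9, 151 and 36.5 FPKM in the control libraries and 47.5, 31.3 and 37.6 FPKM in the SMA libraries. The first 2 genes had no overlap between the groups and the third did. Hist1h2bb had a log2 fold change of −1.09 ± 0.51 (SE) with all libraries and −0.50 ± 0.24 without control replicate 2, with overlap.

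The H3 gene Hist1h3d was at 64.2, 260 and 45.9 FPKM in the control libraries and 49.98, 38.1 and 39.8 FPKM in the SMA libraries. Hist1h3i was at 52.8, 238 and 43.1 FPKM in the control libraries and 45.0, 33.5 and 32.1 FPKM in the SMA libraries. Hist1h3c was at 44.5, 228 and 38.7 FPKM in the control libraries and 33.7, 32.5 and 28.2 FPKM in the SMA libraries, with no overlap. Of all members tested, Hist1h3g had the largest log2 fold change over the 6 libraries, −1.48 ± 0.63 (SE), with −0.74 ± 0.27 when control replicate 2 was left out, and was also the only 1 of the 44 members with a stem-loop match whose loop read tctt. It was at 11.9, 54.3 and 9.59 FPKM in the control libraries and 9.61, 4.27 and 5.19 FPKM in the SMA libraries, so SMA replicate 1 and control replicate 3 were level. Hist2h3c2 had a log2 fold change of −1.31 ± 0.67 (SE) with all libraries and −0.47 ± 0.19 without control replicate 2.

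In the H4 class, Hist1h4d was at 160, 419 and 103 FPKM in the control libraries and 176, 117 and 145 FPKM in the SMA libraries. Hist1h4n was at 85.7, 284 and 83.1 FPKM in the control libraries and 77.9, 82.3 and 69.3 FPKM in the SMA libraries. Hist1h4b was at 60.9, 210 and 46.6 FPKM in the control libraries and 39.0, 38.1 and 45.9 FPKM in the SMA libraries. Hist1h4d overlapped between the groups, and in Hist1h4n and Hist1h4b the highest SMA library lay just below the lowest control library. Hist1h4f was at 39.8, 130 and 27.7 FPKM in the control libraries and 19.3, 18.4 and 21.9 FPKM in the SMA libraries. Hist1h4m was at 26.8, 85.9 and 30.2 FPKM in the control libraries and 20.1, 18.3 and 19.6 FPKM in the SMA libraries. Hist2h4, named here after its values were seen, was at 52.2, 91.0 and 50.2 FPKM in the control libraries and 33.5, 28.0 and 31.8 FPKM in the SMA libraries. These 3 genes had the widest gaps of the named H4 genes between the lowest control and the highest SMA library. The coding sequence of Hist1h4m is identical to that of Hist1h4n, so the split of reads between them is uncertain.

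**Figure D3:**
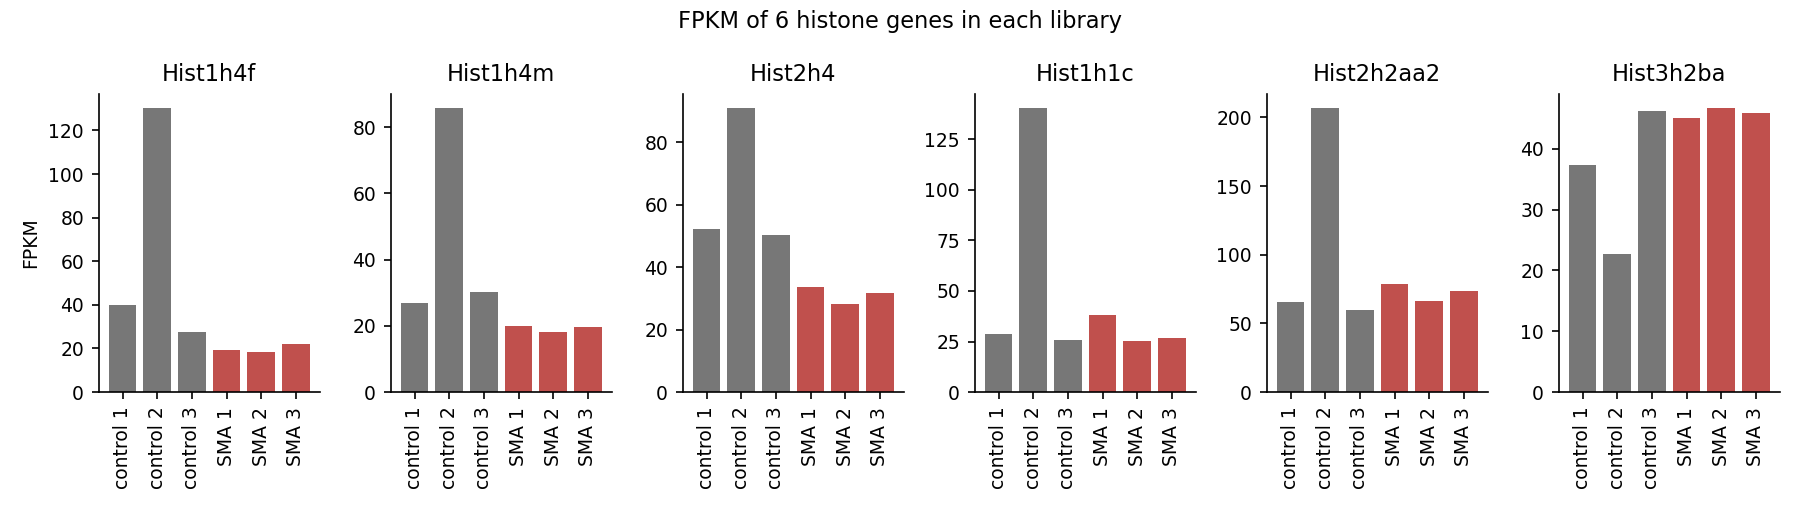
FPKM (vertical axis, from 0, with its own scale for each gene) of 6 members in the 6 libraries. Hist1h4f, Hist1h4m and Hist2h4 are lower in each SMA library than in each control library, Hist1h1c and Hist2h2aa2 are high in control 2 alone, and Hist3h2ba is lowest in control 2.

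SMA and control libraries were compared gene by gene with limma on log2(FPKM + 1), which understates the change of low genes, over all genes that averaged 0.5 FPKM or more. Of the 70 members, 68 were tested. With all 6 libraries, 2 members were lower in SMA by an unadjusted p under 0.05 and a fold over 2, against 0.0995% of the 17088 genes tested, and 0 were higher, against 0.0702%. The 2 were Hist1h4f, with a log2 fold change of −1.36 ± 0.52 (SE, adjusted p = 0.683), and Hist1h4m, with −1.06 ± 0.41 (adjusted p = 0.683). With single libraries left out, the number of members called by p and fold ranged from 0 to 24, all lower in SMA. By unadjusted p alone and with all libraries, limma placed 4 members lower and 0 higher, against 2.39% and 3.4% of all genes. No member and none of the 17088 genes (0.0%) passed an adjusted p of 0.05 in limma. The values of every SMA library were below those of every control library for 18 members, against 6.67% of all genes, and above them for 0 members, against 10.3%. The median log2 fold change was −0.91 over the 68 members and 0.04 over all genes.

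Without control replicate 2, 0 of 68 members passed the thresholds of p and fold in limma in either direction, against 0.0422% lower and 0.0965% higher of the 16574 genes tested. By unadjusted p alone, 17 members were lower and 3 higher in SMA, against 5.2% and 5.27% of all genes. No member passed an adjusted p of 0.05 by limma, against 2 genes (0.0121%) in all. The groups did not overlap for the same 18 members that were lower before, against 13.9% of all genes, and SMA was above control for 4 members, against 14.2%. The lower members comprised 3 of 5 H1, 1 of 19 H2A, 3 of 19 H2B, 4 of 12 H3 and 7 of 13 H4 genes tested. The 4 higher members were Hist2h2aa2, Hist2h2ab, Hist1h2bc and Hist1h4h, named after their values were seen. The median log2 fold change of the members became −0.18, with a range from −0.96 to 0.61, and the smallest adjusted p was 0.108, for Hist2h4. Its log2 fold change was −0.71 ± 0.08 (SE) without control replicate 2 and −0.98 ± 0.23 with all libraries (adjusted p = 0.683). That of Hist1h4f became −0.72 ± 0.15 (adjusted p = 0.287) and that of Hist1h4m −0.54 ± 0.08 (adjusted p = 0.176), while that of Hist1h1c turned from −0.65 ± 0.63 to 0.13 ± 0.16 (adjusted p = 0.821).

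**Figure D4:**
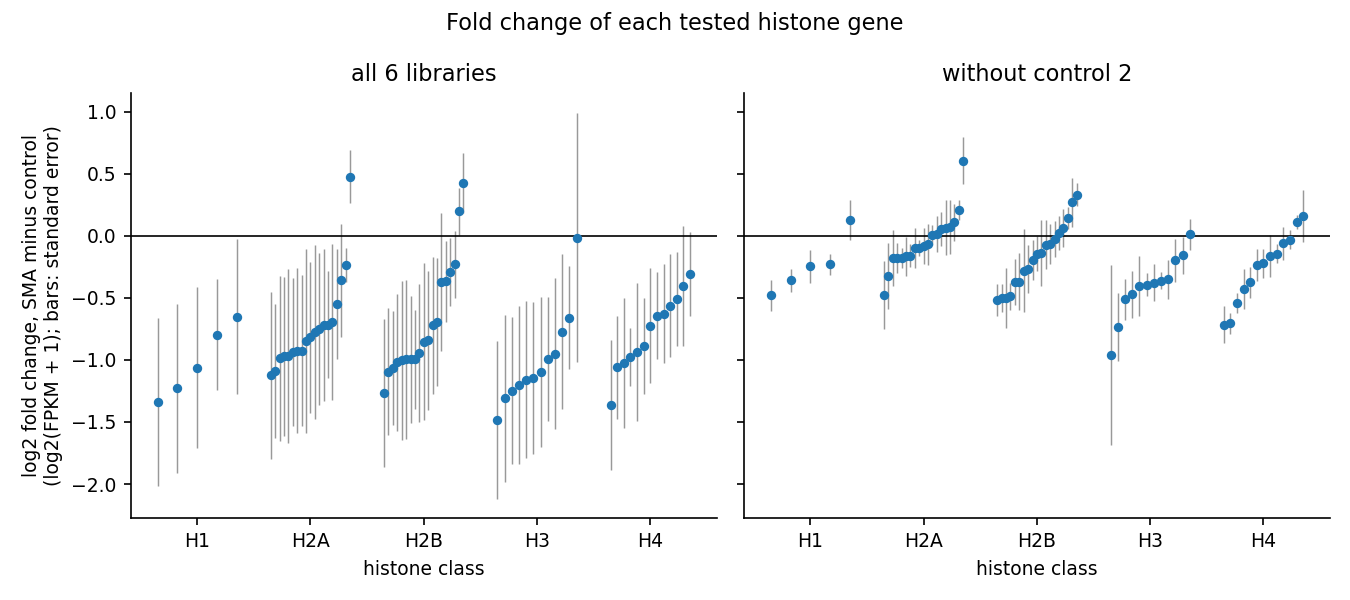
Log2 fold change of SMA minus control (vertical axis, log2(FPKM + 1) scale, bars show the limma standard error) for the 68 members tested, by class, with all 6 libraries on the left and without control 2 on the right. The median is −0.91 on the left and −0.18 on the right, and the median standard error is 0.555 on the left and 0.148 on the right.

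Summed over genes, the listed U7 snRNP and histone mRNA processing factors were close to level across the libraries, while single genes varied in control replicate 2. The 28 listed genes of the U7 snRNP and of histone mRNA processing summed to 417, 399 and 430 FPKM in the control libraries and to 432, 424 and 424 FPKM in the SMA libraries. Over these genes the median ratio of control replicate 2 to the mean of the other libraries was 0.959. It ranged from 0.615 for Lsm11 to 1.72 for Snrpf, which was named after its values were seen. Slbp, the stem-loop binding protein, was at 16.6, 18.8 and 13.6 FPKM in the control libraries and 11.3, 14.3 and 13.5 FPKM in the SMA libraries. Lsm10 was at 4.62, 6.25 and 5.82 FPKM in the control libraries and 5.42, 4.78 and 5.21 FPKM in the SMA libraries. Lsm11 was at 36.5, 22.6 and 37.1 FPKM in the control libraries and 35.6, 37.3 and 36.9 FPKM in the SMA libraries. Slbp and both ring proteins overlapped between the groups, and Lsm11 was lowest in control replicate 2. Npat, the S phase activator of histone transcription, was at 7.58, 6.61 and 6.89 FPKM in the control libraries and 6.53, 6.51 and 6.42 FPKM in the SMA libraries. Casp8ap2, which is needed for histone gene transcription and processing, was at 4.45, 5.78 and 4.13 FPKM in the control libraries and 6.09, 4.94 and 4.71 FPKM in the SMA libraries. Every SMA library lay below every control library for Npat and, without control replicate 2, above every control library for Casp8ap2. Zfp473, a zinc finger protein of the U7 complex, was at 0.314 to 0.495 FPKM and was not tested. Of the 27 genes of the list tested, 0 passed the thresholds of p and fold in limma in either version and 1, the exonuclease gene Eri1, named after its values were seen, was lower by unadjusted p with all libraries. Without control replicate 2, 0 were lower and 1 was higher by unadjusted p, the Sm protein gene Snrpb, also named after its values were seen, with a log2 fold change of 0.35 ± 0.07 (SE, adjusted p = 0.273) and no overlap. The median log2 fold change was 0.02 with all libraries and 0.00 without control replicate 2.

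Replacement histones, which serve chromatin outside S phase, varied in control replicate 2 from gene to gene. The 11 replacement histone genes summed to 444, 537 and 422 FPKM in the control libraries and to 432, 428 and 426 FPKM in the SMA libraries, sums carried mainly by H3f3b and H3f3a. H3f3b was at 132, 134 and 118 FPKM in the control libraries and 130, 123 and 124 FPKM in the SMA libraries. H3f3a, which encodes the same H3.3 protein, was at 116, 124 and 110 FPKM in the control libraries and 116, 126 and 117 FPKM in the SMA libraries. H2afz was at 64.6, 73.6 and 56.1 FPKM in the control libraries and 55.6, 56.1 and 53.0 FPKM in the SMA libraries. H2afx, named after its values were seen, differed from these in control replicate 2, at 24.4, 77.1 and 25.1 FPKM in the control libraries and 23.6, 18.3 and 22.1 FPKM in the SMA libraries. Its transcript also held the histone stem-loop. Cenpa, the centromeric H3 variant, likewise named after its values were seen, had no stem-loop match and differed more in control replicate 2, at 3.44, 15.4 and 5.57 FPKM in the control libraries and 2.81, 2.64 and 3.27 FPKM in the SMA libraries. Its log2 fold change was −1.005 ± 0.447 (SE) with all libraries and −0.47 ± 0.18 without control replicate 2. Of the 11 genes, 0 passed the thresholds of p and fold in limma in either version. By unadjusted p, 1 (the linker histone H1f0, named after its values were seen) was lower and 0 higher with all libraries, and 2 were lower and 1 higher without control replicate 2. Of the 20 histone chaperones, which carry histones to DNA, 0 passed the thresholds of p and fold in limma in either version. By unadjusted p, 3 were lower and 1 higher with all libraries, and 2 were lower and 1 higher without control replicate 2. Their sum in control replicate 2 was 0.974 times the mean of the other libraries and was carried by a few abundant genes, while 10 of the 20 genes were highest there. The median ratio of control replicate 2 to the mean of the other libraries was 1.08 over the 20 genes, from 0.673 for Ipo4 to 4.52 for Asf1b, the ends of the range being named after their values were seen. The 3 most abundant, Atrx, Nap1l1 and Tonsl, had log2 fold changes of 0.12 ± 0.12, −0.04 ± 0.10 and 0.01 ± 0.16 (SE) with all libraries, and of 0.01 ± 0.06, −0.10 ± 0.07 and −0.16 ± 0.06 without control replicate 2.

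Genes of DNA replication were also high in control replicate 2, and a link of their values to those of the histones was not tested. The 36 S phase genes summed to 209, 439 and 189 FPKM in the control libraries and to 174, 154 and 160 FPKM in the SMA libraries, so every SMA library was below every control library. Control replicate 2 was the highest library for 35 of the 36, the exception being Cdc7. Pcna, the sliding clamp of DNA polymerase, was at 33.4, 53.2 and 29.3 FPKM in the control libraries and 24.6, 20.9 and 23.8 FPKM in the SMA libraries. Rrm1, a subunit of ribonucleotide reductase, was at 14.3, 24.3 and 10.9 FPKM in the control libraries and 11.2, 10.7 and 10.7 FPKM in the SMA libraries. Limma called 2 of the 36 lower by p and fold with all libraries, the thymidine kinase Tk1 (log2 fold change −1.58 ± 0.53, SE, adjusted p = 0.683) and Uhrf1 (−1.03 ± 0.35, adjusted p = 0.683), a factor of DNA methylation upkeep. Without control replicate 2 it called 0 by p and fold, with 10 lower and 0 higher by unadjusted p, the same counts by unadjusted p as with all libraries. Over all genes, unadjusted p placed 2.39% lower and 3.4% higher with all libraries, and 5.2% lower and 5.27% higher without control replicate 2, and these shares also apply to the counts of the other lists. Without it, Tk1 had a log2 fold change of −0.95 ± 0.23 (adjusted p = 0.303) and Uhrf1 one of −0.61 ± 0.16 (adjusted p = 0.318). The median log2 fold change of the list was −0.50 with all libraries and −0.21 without control replicate 2.

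Markers of other cells were measured beside the histones. The 5 markers of proliferating cells summed to 26.4, 90.9 and 22.9 FPKM in the control libraries and to 20.6, 13.8 and 18.2 FPKM in the SMA libraries, with Top2a as the most abundant, and the SMA libraries lay below all control libraries. Limma called 1 of the 5, the cyclin Ccnb1, lower by p and fold with all libraries (log2 fold change −1.04 ± 0.38, SE, adjusted p = 0.683) and 0 without control replicate 2, where 3 were lower by unadjusted p. The 8 neutrophil and myeloid progenitor markers summed to 424 FPKM in control replicate 2 and to 6.04 to 12.7 FPKM elsewhere, with S100a8 as the most abundant, and Elane was listed at 0 in control replicate 3 and SMA replicate 1. The 12 hepatocyte, 11 erythroid, 8 myeloid and 5 proliferation markers in the files were each highest in control replicate 2. The 6 neuronal markers, led by Meg3, summed to 1305, 1136 and 1568 FPKM in the control libraries and to 1539, 1539 and 1607 FPKM in the SMA libraries, with the lowest sum in control replicate 2. Meg3 carried most of that sum, and the median ratio of control replicate 2 to the mean of the other libraries was 0.539 over the 6 genes, with Tubb3, a neuronal tubulin, at 0.496 and Meg3 at 0.923. Astrocyte, oligodendrocyte lineage and microglial markers, led by Gfap, Mbp and P2ry12, summed in control replicate 2 to 0.865, 0.908 and 0.991 times the mean of the other libraries, with medians over their genes of 0.842, 0.783 and 0.855. The 3 endothelial markers, led by Cldn5, summed to 35.8, 34.7 and 33.4 FPKM in the control libraries and to 25.3, 20.9 and 19.6 FPKM in the SMA libraries. Their median ratio of control replicate 2 to the mean of the other libraries was 1.64, with Cldn5 at 1.05. The testis marker Ddx4 was at 0.0853 to 0.240 FPKM. The part of any of these cells in the histone values was not tested.

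**Figure D5:**
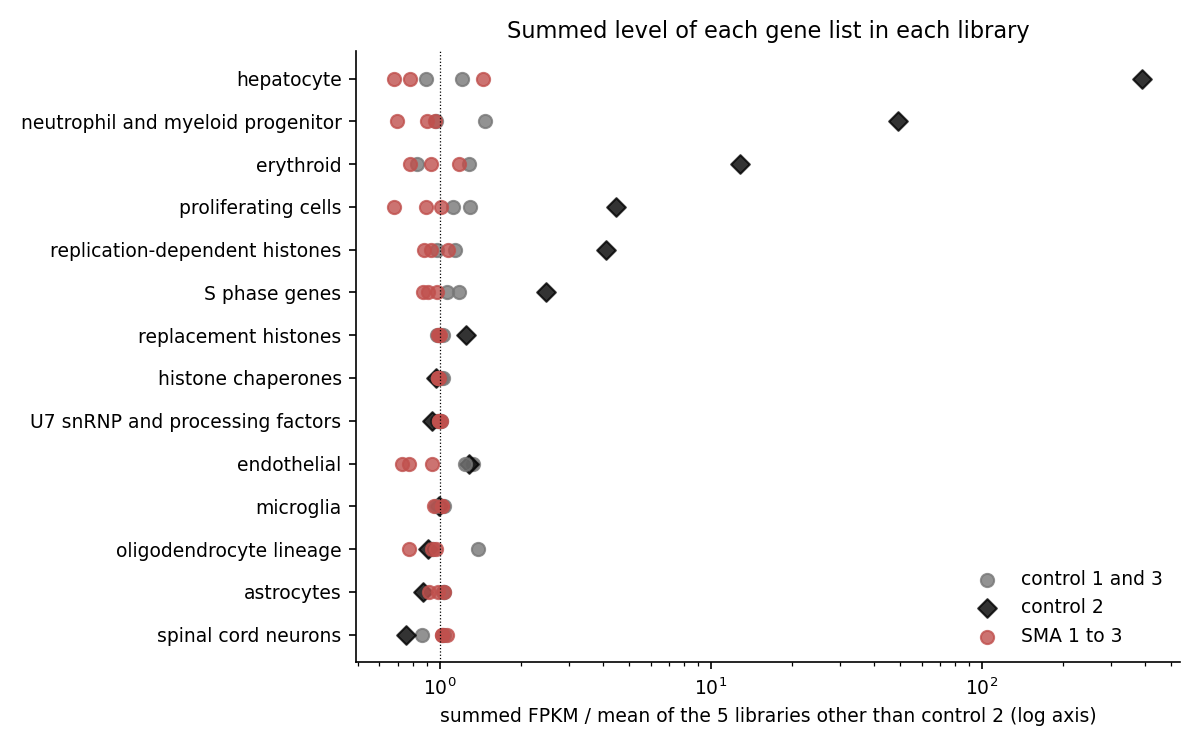
Summed FPKM of each gene list in each library, divided by the mean of the 5 libraries other than control 2 (horizontal log axis). Control 2 (black diamonds) lies at 4.10 for replication-dependent histones, between S phase genes (2.47) and markers of proliferating cells (4.46), and at 391 for hepatocyte markers, while U7 snRNP and processing factors (0.938) and chaperones (0.974) lie near 1.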

How the data were processed

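The authors deposited FPKM per gene for each library, and per the labels these were made with HISAT2 and Cufflinks on mm10, with versions not given in the sources used here. Genes absent from a file were set to 0. Members and gene lists were chosen with earlier results of these data known. SMA and control were compared with limma 3.58.1 in R 4.3.3 (lmFit, eBayes with trend, two-sided) on log2(FPKM + 1), over all genes that averaged 0.5 FPKM or more, with Benjamini-Hochberg adjustment over all of them. The procedure was tested on simulated data. An exact permutation test of 3 libraries against 3, or of 3 against 2, cannot give a p below 0.1 and was not used. Depth in reads is unknown. Values under 0.15 FPKM cluster on steps, whose commonest ratio put the depth of the libraries at 1.00 to 1.16 times that of SMA replicate 1, and no counting interval could be given. The read counts of the study's DESeq comparison were not used here.

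Named genes were, per class, the 3 of highest mean FPKM and the 2 of largest log2 fold change, every H1 gene, every member called by p and fold, Slbp, Lsm10, Lsm11, Casp8ap2, Npat, Zfp473 and called processing factors, and the 3 most abundant and all called genes of the replacement histone, chaperone and S phase lists. Hist3h2ba, Hist3h2a, Hist2h2ab, Hist2h2be, Hist2h3c1 and Hist1h2ba lay outside the pattern of control replicate 2 and were named after their values were seen. They and Hist2h4 were not among the named genes compared under the alternatives. The cell type markers are given as sums with the most abundant gene named, and further ones were named after their values were seen. Rnu7 and Tut7 of the processing list, Ahsp of the erythroid list and Prm1 and Tnp1 of the testis list were not found. Alternatives covered the pseudocount, the filter, scaling, the replicate number as a block and each library left out. The scalings without control replicate 2 were added after the data were seen.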

Additional observations from a re-analysis of the deposited data

How the results depend on the processing

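All members called by p and fold were lower in SMA under every alternative. Their number was 2 with all libraries, 5 with a pseudocount of 0.1, 5 after rescaling to the same total FPKM, 3 after median ratio scaling and 2 after quantile normalization or with another minimum of FPKM. With single libraries left out it ranged from 0 to 24. It was 0 without control replicate 2, SMA replicate 2 or SMA replicate 3, 1 without SMA replicate 1, 4 without control replicate 1 and 24 without control replicate 3. With control replicate 2 left out it was also 0 under each of the 3 scalings, which were added after the data were seen. The cause was not tested.

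With the replicate number as a block the number was 4. Libraries with the same number deviated from their group means with correlations of −0.037, 0.0161 and 0.0766 and did not all match best with their own number, so the numbers are shared labels and no pairing was assumed.

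The log2 ratio of summed FPKM stayed negative in each class under all alternatives. With single libraries left out it ranged from −1.87 to −0.20 for H1, −1.37 to −0.018 for H2A, −1.41 to −0.19 for H2B, −1.86 to −0.34 for H3, −1.21 to −0.15 for H4 and −1.45 to −0.15 for all members, where the upper end is without control replicate 2. With that library left out and the rest rescaled to the same total, H1, H2A, H2B, H3, H4 and all members were at −0.25, −0.069, −0.24, −0.39, −0.20 and −0.20. After median ratio scaling they were at −0.20, −0.021, −0.20, −0.35, −0.16 and −0.15, and after quantile normalization at −0.19, −0.037, −0.19, −0.34, −0.16 and −0.15. From medians of the libraries in place of means, they were at −0.41, −0.14, −0.37, −0.59, −0.28 and −0.30. From members with a stem-loop match alone and all 6 libraries, they were at −1.30, −0.95, −0.91, −1.47, −0.89 and −1.02.

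With single libraries left out, the median log2 fold change ranged from −1.30 to −0.18 for members, −0.75 to −0.21 for S phase genes, −0.01 to 0.06 for processing factors, −0.22 to −0.03 for replacement histones and −0.15 to −0.11 for chaperones, which were at −0.18 after median ratio scaling.

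Of 640 values for 40 named genes tested, 561 kept direction and side of the threshold, 27 became weaker, 19 stronger and 33 reversed. With control replicate 2 left out and rescaling to total, median ratio and quantiles in turn, Hist1h1c was at 0.0765, 0.12 and 0.13, Hist2h2aa2 at 0.16, 0.21 and 0.20, Hist1h4d at 0.11, 0.16 and 0.15, Lsm11 at −0.060, −0.012 and −0.0095 and Tonsl at −0.22, −0.17 and −0.19. With it left out, Atrx was at −0.044 after rescaling to total and −0.028 after quantile normalization, and Hist2h2aa1 at 0.0025 and H3f3b at 0.0097 after median ratio scaling. With all libraries, Tonsl was at −0.043 after median ratio scaling and −0.044 after quantile normalization, H3f3b at 0.000083 after rescaling to total and H3f3a at −0.022 after median ratio scaling. With single libraries left out, the range was −1.08 to 0.13 for Hist1h1c, −0.84 to 0.0056 for Hist2h2aa1, −0.68 to 0.21 for Hist2h2aa2, −0.84 to 0.16 for Hist1h4d, −0.0089 to 0.34 for Lsm11, −0.10 to 0.037 for Nap1l1, −0.16 to 0.12 for Tonsl, −0.081 to 0.013 for H3f3b and −0.0020 to 0.080 for H3f3a. The cause was not tested.

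Where control replicate 2 is left out the control group has 2 libraries. Depth in reads is unknown, so its effect on members of low FPKM was not measured.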
